A study of Mus musculus with 10 samples.

Results

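Olfactory receptor genes were examined in spermatozoal DNA of 10 male C57Bl/6 mice by reduced representation bisulfite sequencing, a method that cuts DNA at CCGG and counts, at each CpG site on the short fragments, the reads with a methylated and an unmethylated cytosine. A CpG site was taken as an olfactory receptor site if it lay on an autosome, inside or within 1 kb of a gene whose GENCODE vM21 symbol begins with Olfr, and, with both strands summed, every one of the 10 animals had 10 or more reads there. This rule used no methylation value and gave 437 CpG sites out of 892267 covered autosomal sites. The P-generation comprised 2 vehicle-control animals (C14 and C8), given 7.5% dimethyl sulfoxide in buffered saline, and 3 decitabine treated animals (D10, D11 and D13), given 0.1 µg/g of the DNA methyltransferase inhibitor decitabine in the same vehicle. Both were injected intraperitoneally 3 times per week for 7 weeks, starting at an age of 7 weeks. The F3-generation comprised 2 vehicle-lineage males (F3C30, a descendant of C14, and F3C9, a descendant of C8) and 3 decitabine-lineage males (F3D1 and F3D31, both descendants of D10, and F3D7, a descendant of D11), which were untreated and analysed at 14 weeks of age. The lineages ran through males mated with untreated females, so that the F3 animals of 1 ancestor are related and the 10 animals are not fully independent. Spermatozoa were released from minced whole epididymides and passed through a cell strainer.

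Olfactory receptors are G protein-coupled receptors, each encoded by a small gene that usually carries its coding sequence in a single exon, and they form the largest gene family of the mouse, arranged in clusters on most chromosomes. Each olfactory sensory neuron expresses a single allele of a single receptor gene. Their promoters are mostly poor in CpG dinucleotides, and a few receptors, such as Olfr78, are also found in tissues outside the nose.

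The stretches of GRCm38, the mm10 build, around 6 groups of sites are shown because the results turn on them. All are written on the plus strand, 5′ to 3′, with the CG of the CpG sites in question in capitals. In the first 4 the capitals mark sites called as differentially methylated. These are 3 sites at the start of Olfr1033 (chr2:86020564-86020673), 1 in an intron of Olfr1417 (chr19:11831518-11831579), 1 in a non-coding exon part of Olfr859 (chr9:19816158-19816219) and 1 downstream of Olfr750 (chr14:51066006-51066067). In the last 2, taken from the receptor genes with the lowest and the highest mean level among those with at least 8 sites, the capitals mark all covered sites, in the coding exon of Olfr94 (chr17:37197179-37197329) and downstream of the pseudogene Olfr1319-ps1 (chr2:112168485-112168635).
Olfr1033: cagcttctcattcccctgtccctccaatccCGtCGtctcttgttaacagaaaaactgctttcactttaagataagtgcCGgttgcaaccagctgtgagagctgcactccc
Olfr1417: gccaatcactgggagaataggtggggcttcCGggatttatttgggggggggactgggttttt
Olfr859: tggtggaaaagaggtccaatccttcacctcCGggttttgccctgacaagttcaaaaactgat
Olfr750: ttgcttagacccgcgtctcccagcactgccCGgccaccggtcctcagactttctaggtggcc
Olfr94: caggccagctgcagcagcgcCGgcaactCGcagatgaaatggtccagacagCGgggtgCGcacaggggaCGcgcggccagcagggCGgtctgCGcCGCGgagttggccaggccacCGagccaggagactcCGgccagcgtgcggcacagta
Olfr1319-ps1: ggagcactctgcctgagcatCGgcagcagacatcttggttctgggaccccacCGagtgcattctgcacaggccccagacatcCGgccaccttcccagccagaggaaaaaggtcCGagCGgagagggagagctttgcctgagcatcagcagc
The Olfr1417 and Olfr859 sites stood nearly alone, with 1 and 2 CpG dinucleotides in the 200 bp around them. The Olfr94 exon was CpG dense, with a mean of 24.0 around its 11 sites, and was nearly free of methylation at 1.38%. The Olfr1319-ps1 flank had a mean of 7.73 and a level of 94.8%.

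The covered sites touched a small share of the family. Of 1399 annotated autosomal Olfr genes, 128 held at least 1 site (9.15%), of which 105 were protein-coding and 23 were pseudogenes or other types. When genes less than 1 Mb apart were joined, the family fell into 61 autosomal clusters, of which 30 held a site, 17 held at least 10 sites, and 31, with 131 genes in all, held none. The rule's limits bear on the set as follows: 45 candidate sites whose lowest read number was 8 or 9 had a mean level of 58.4%, 32 sites at 10 or 11 of 66.2%, 13 sites just inside the limit of 1 kb from their gene of 94.6% and 24 candidates just outside it of 88.0%. No covered site was found at the 8 Olfr genes of the X chromosome. There were 41 genes with 1 site, 33 with 2 and 54 with at least 3. By position, 106 sites lay in coding exons, 113 in other exons, 110 in introns, 40 in the upstream and 68 in the downstream flank. For 67 sites another gene lay within 1 kb as well, and 34 of these belonged to 1 pseudogene, Olfr1372-ps1, which overlaps the long non-coding RNA gene Gm26551. Of the 18 well-studied receptors on a list of candidates, which included Olfr2, Olfr15, Olfr16, Olfr17, Olfr73, Olfr151, Olfr160 and Olfr1507, Olfr78 was the only one that held a site.

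The summed coverage per animal ranged from 48903817 (D13) to 115158278 (F3D1), and the median read number of an olfactory receptor site from 31 (D13) to 69 (F3D1). At these medians a level near the middle of the scale has a 95% Wilson interval of 32.0% to 65.2% in D13 and of 37.8% to 60.8% in F3D1, which covers counting error only, since reads amplified by PCR without molecular identifiers are not independent molecules. Receptor genes have close paralogues and repeats, and sites where reads map to several places are lost or uncertain. As a check of the tissue, the starts of 5 maternally methylated imprinted genes (Peg3, Peg10, Nnat, Zrsr1 and Airn), which are unmethylated in sperm and methylated on 1 allele in somatic cells, had a mean level of 13.5% over 51 sites, from 8.26% (C14) to 21.9% (D11). The starts of 9 germ-line genes (Dazl, Ddx4, Mael, Sycp1, Sycp3, Hormad1, Taf7l, Tdrd1 and Dpep3), which are methylated in somatic cells, had a mean of 21.3% over 167 sites. In them C14 had a level of 15.2%, C8 of 33.5%, D10 of 27.5%, D11 of 28.5%, D13 of 19.9%, F3C30 of 14.9%, F3C9 of 24.8%, F3D1 of 19.99%, F3D31 of 15.5% and F3D7 of 13.3%. C8 was the highest and the groups overlapped in both generations. Snrpn, Mest, Plagl1, Kcnq1ot1 and Tex101 held no covered site.

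The olfactory receptor sites were more methylated than the rest of the covered autosomal CpG sites. Their mean level was 62.9% in C14, 66.7% in C8, 65.3% in D10, 65.3% in D11, 63.8% in D13, 61.8% in F3C30, 63.7% in F3C9, 64.5% in F3D1, 63.0% in F3D31 and 63.4% in F3D7. The mean over animals was 64.0% ± 1.44 (SD, n = 10), against 27.9% ± 0.227 for the other 891830 sites. The difference was 36.1 percentage points and positive in 10 of 10 animals (exact sign-flip permutation test, two-sided, p = 0.001953, the smallest possible with 10 animals; adjusted p = 0.003255 over 5 comparisons). This test measures how steady the difference was over these related animals at the same sites, not the spread between sites or genes. Against the 765483 other sites in or near another gene, whose level was 22.0%, the difference was 42.0 percentage points. The 126347 other sites that lay within 1 kb of no gene had a level of 63.5%, close to that of the receptor sites.

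This difference depended on how many CpG dinucleotides surrounded a site. In the 200 bp around it, the median olfactory receptor site had 6 CpG dinucleotides and a GC content of 52.5%, against 15 and 65% for all covered autosomal sites. Among sites with at most 4 CpG dinucleotides, 177 receptor sites had a level of 80.01% and 116390 other sites of 79.9%. The difference of 0.144 percentage points was positive in 5 of 10 animals and ranged from -2.80 to 3.29 (exact sign-flip permutation test, p = 0.8066). With 5 to 10, the levels were 60.7% and 58.5%, and the difference of 2.14 percentage points was positive in 8 of 10 animals (exact sign-flip permutation test, p = 0.01758, adjusted p = 0.02197). Above 10, the 95 receptor sites had a level of 40.2% and the 557473 other sites of 5.08%. This difference of 35.1 percentage points was positive in 10 of 10 animals (exact sign-flip permutation test, p = 0.001953, adjusted p = 0.003255). The sets were not matched for density within this open class. Over all covered autosomal sites the level fell with density (Spearman's rho -0.721). These tests too measure how steady a difference was over animals, not the spread between sites or genes. CpG-dense receptor sites came from 12 genes, and 51 of them were under 20%, 30 over 80% and 14 between. Without the sites of Olfr1372-ps1, the level of the remaining 69 dense sites was 54.8%. The plot of level by CpG density shows the 3 classes in each animal.

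**Figure D1:**
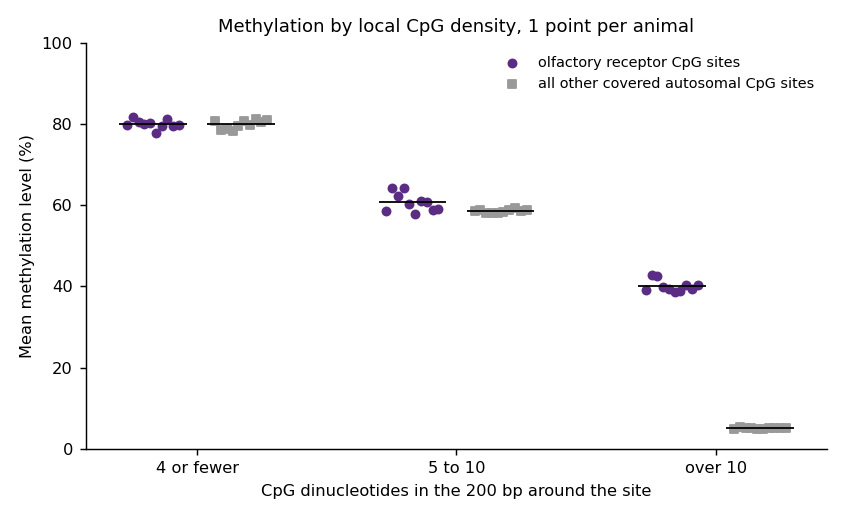
Mean methylation level (%) of olfactory receptor CpG sites (circles) and of all other covered autosomal CpG sites (squares), by the number of CpG dinucleotides in the 200 bp around the site; each point is 1 of 10 animals and each line the mean. At 4 or fewer the sets lie together (80.01% and 79.9%), above 10 they lie apart (40.2% and 5.08%).

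Over single sites the olfactory receptor set was spread over the whole scale. There were 218 sites with a mean level over 80% (49.9%), 144 between 20 and 80% (33.0%) and 75 under 20% (17.2%), while the corresponding shares of all covered autosomal sites were 22.5%, 11.3% and 66.2%. The median SD over the 10 animals was 5.55 percentage points for receptor sites over 80%, 13.4 between 20 and 80% and 3.74 under 20%, against 5.37, 13.1 and 0.545 for other sites of the same classes. Of the receptor sites 55.4% lay in CCGG and 31.4% in soft-masked repeats, against 34.5% and 7.99% of all covered autosomal sites. The 137 sites in repeats had a mean level of 80.1% and the other 300 of 56.7%. By position the mean level was 75.9% in upstream flanks, 75.1% in downstream flanks, 71.8% in introns, 58.4% in coding exons and 50.9% in other exons. Sites near a further gene had a level of 32.0% and those near none of 69.8%. The 359 sites of the vomeronasal receptor families Vmn1r and Vmn2r, which detect pheromones, had a mean level of 62.8%, the 80 sites of the taste receptor families of 32.2%, the 22 sites of the formyl peptide receptors of 23.5% and the 7 sites of the trace amine-associated receptors of 29.9%.

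Levels differed between clusters far more than between animals. A cluster's level is the mean over its covered sites, which often came from a small share of its genes. Of the 17 clusters with at least 10 sites, 4 had a mean level above 90%. These were the clusters on chromosome 7 from Olfr522 to Olfr542-ps1 (95.8%, 15 sites), on chromosome 1 from Olfr1416 to Olfr12 (95.3%, 13 sites), on chromosome 4 from Olfr70 to Olfr155 (93.0%, 11 sites) and on chromosome 2 from Olfr1275 to Olfr1319-ps1 (92.8%, 19 sites). In 3 of them all sites were above 80%, and in the chromosome 2 cluster 18 of 19 were. The large clusters on chromosome 2 from Olfr987 to Olfr1274-ps (85330779 to 90403897, with 287 genes, of which 9 held 30 sites) and on chromosome 9 from Olfr160 to Olfr986 (25 sites), had levels of 77.6% and 75.4%. Between 70 and 80% lay also the clusters on chromosome 11 from Olfr20 to Olfr412 (79.6%), on chromosome 10 from Olfr9 to Olfr827 (79.1%), on chromosome 9 from Olfr24 to Olfr18 (74.3%) and on chromosome 11 from Olfr56 to Olfr1380 (73.0%).

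The cluster that holds the class I receptors, an evolutionarily old group related to the receptors of fish, lies on chromosome 7 from Olfr543 to Olfr692 (102476579 to 105369355). Of its 156 genes 11 held 45 sites, with a mean level of 67.9%. Lower levels were found in the clusters on chromosome 11 from Olfr30 to Olfr225 (64.1%, 37 sites), on chromosome 15 from Olfr288 to Olfr278-ps1 (60.4%, 15 sites), on chromosome 19 from Olfr1417 to Olfr1505 (52.3%, 35 sites), on chromosome 17 from Olfr90 to Olfr136 (45.6%, 33 sites) and on chromosome 14 from Olfr722 to Olfr1507 (38.5%, 14 sites). The lowest was a cluster of 3 genes on chromosome 11 (Olfr1373 to Olfr1371) with a level of 2.52%, whose 34 sites all belonged to Olfr1372-ps1. In other low clusters too, 1 gene held many of the sites. Olfr1419 (32.3%) held 18 of 35 on chromosome 19, and Olfr94 (1.38%) 11 of 33 on chromosome 17. Olfr750 (10.7%) held 8 of 14 on chromosome 14, and Olfr279 (42.3%) 9 of 15 on chromosome 15. The SD over animals was between 0.910 and 3.81 percentage points except in the clusters of chromosome 11 from Olfr20 (5.68) and of chromosome 15 (7.77). In the latter, C8 stood apart with 76.9% against 52.0% to 65.6% in the other animals.

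**Figure D2:**
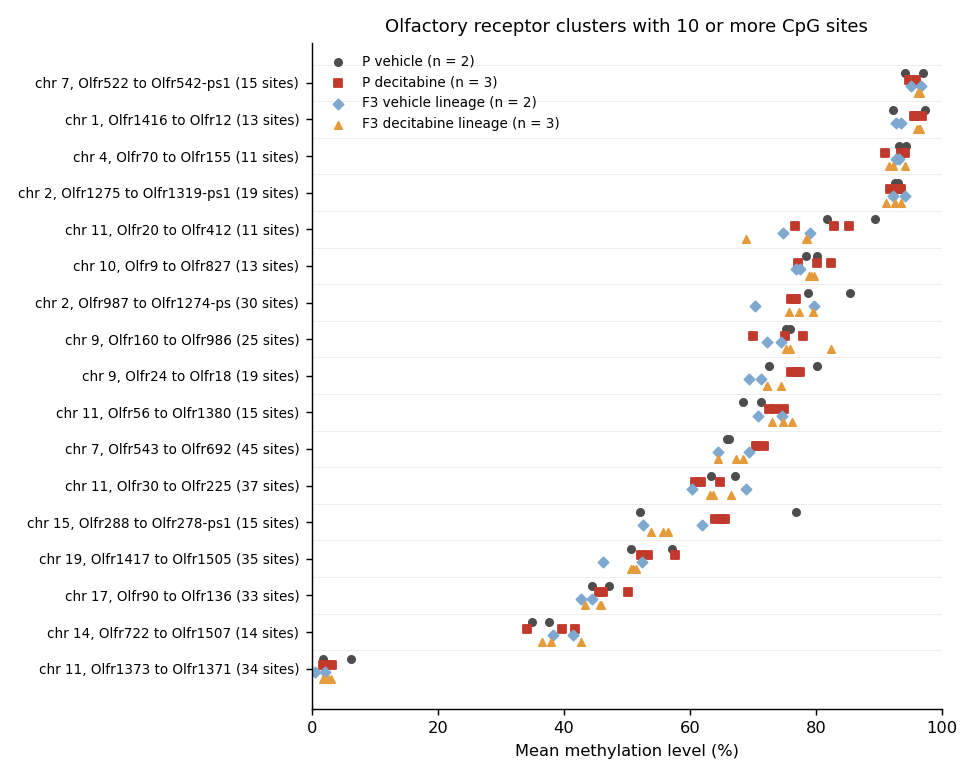
Mean methylation level (%, horizontal axis) of the 17 clusters with at least 10 olfactory receptor CpG sites, named by chromosome and by first and last gene and ordered by level; each point is 1 animal, with colour and shape for the 4 groups. The clusters run from 2.52% to 95.8%, and C8 stands apart on chromosome 15 with 76.9%.

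The unmethylated receptor genes were few. Among the 54 genes with at least 3 sites, 29 had a mean level over 80%, 21 between 20 and 80% and 4 under 20%. Olfr94, a protein-coding gene on chromosome 17, ranged from 0.178% (F3C9) to 3.12% (C8) over its 11 coding sites. Olfr1372-ps1 ranged from 0.559% (F3C9) to 6.17% (C8) over 34 sites. Olfr750 had a level of 10.7% over 8 sites, 6 of them in the downstream flank, with single sites from 0.835% to 32.1%. Olfr1358 had a level of 15.2% over 6 sites that also lie near the long non-coding RNA gene Gm47944, and its animals ranged from 0.794% (F3D31) to 23.7% (F3D1). Olfr315 had the fifth lowest level, 24.3%, over 3 coding sites.

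Of the genes with most sites after Olfr1372-ps1, Olfr1419 and Olfr643 held sites under 20% and over 80%. Olfr1419, with 18 sites in its exons, had a mean level of 32.3% and single sites from 4.81% to 98.7%. Olfr643, with 17 sites over a long gene model that also spans Ubqln5, had a mean of 52.7% and sites from 1.77% to 100%. Olfr951 and Olfr56 held none under 20%. Olfr951 had 16 sites from 52.2% to 82.6% and a mean of 66.4%. Olfr56, whose gene model overlaps the interferon-induced gene Ifi47 at 3 of its 12 sites, had a mean of 67.6% and sites from 34.4% to 98.6%.

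Sites of intermediate and low level followed the germ-line gene starts from animal to animal. The 144 sites between 20 and 80% had a mean level of 45.9% in C14, 58.6% in C8, 53.8% in D10, 53.8% in D11, 49.3% in D13, 45.2% in F3C30, 48.7% in F3C9, 51.2% in F3D1, 47.1% in F3D31 and 48.2% in F3D7. C8, with the highest germ-line level, had also the highest level here. Over the 10 animals Pearson's r with the germ-line level was 0.91 (permutation p = 0.00036, adjusted p = 0.00112 over 8 relations) and Spearman's rho 0.879 (permutation p = 0.00172, adjusted p = 0.004587), and r was 0.787 without C8 and D11, the animals farthest from the median. For the 75 sites under 20%, which ranged from 4.72% (F3D31) to 9.56% (C8), r was 0.899 (permutation p = 3e-05, adjusted p = 0.00024), rho 0.879 and r without C8 and D11 0.947. For the 218 sites over 80%, r was -0.539 (permutation p = 0.1051, adjusted p = 0.1201), rho -0.479 and r without C8 and D11 -0.0495. These sites ranged only from 91.7% (C8) to 94.1% (C14). Over all 437 sites r was 0.896 (permutation p = 0.00042, adjusted p = 0.00112), rho was 0.879 and r was 0.766 without C8 and D11.

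With the imprinted gene starts as the measure, r was 0.771 for the sites between 20 and 80% (permutation p = 0.00891, adjusted p = 0.01782), 0.71 for those under 20% (permutation p = 0.0206, adjusted p = 0.02747), -0.461 for those over 80% (permutation p = 0.1735) and 0.749 for all sites (permutation p = 0.01217, adjusted p = 0.01947). The corresponding rho values were 0.806, 0.818, -0.552 and 0.806, and r without C8 and D11 was 0.583, 0.774, -0.128 and 0.554. Each generation holds 5 animals, under the minimum of 6 set for a correlation, so none is given within a generation. In the P-generation C14 was lowest and C8 highest in both the germ-line level and the sites between 20 and 80%, while in the F3-generation F3C9 was highest in the former and F3D1 in the latter. Animals of 1 lineage are related, and these p-values take them as independent. Among single genes with at least 3 sites, the highest r with the germ-line level was that of Olfr396-ps1 (0.894), whose mean level is over 80%. The next were those of Olfr272 (0.874), Olfr279 (0.873), Olfr314 (0.821), Olfr1419 (0.787) and Olfr315 (0.763). The lowest were those of Olfr30 (-0.826), Olfr225 (-0.762) and Olfr982 (-0.676), all over 80%, and of Olfr222 (-0.611), between 20 and 80%. These genes were chosen after their values were seen. Of the 21 genes between 20 and 80% with at least 3 sites, 15 had a positive r with the germ-line level (median 0.397). Of the 29 over 80%, 12 had (median -0.0429).

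Olfr272 and Olfr314 show the range of such genes. Over 7 intronic sites, Olfr272 had a level of 15.4% in C14, 35.3% in C8, 31.9% in D10, 45.2% in D11, 25.03% in D13, 17.3% in F3C30, 29.3% in F3C9, 26.8% in F3D1, 24.2% in F3D31 and 16.4% in F3D7. Over 4 coding sites, Olfr314 had 18.9% in C14 and 50.8% in C8, and from 23.6% to 32.2% in the other 8 animals. In both genes the vehicle-control animals C14 and C8 differed by more than the group means did. The part of other cells or of the animals' lineages in these levels was not tested. By flow cytometry, the paper reported a high sperm purity, similar between its groups, in randomly chosen P-generation samples. It did not name the animals measured.

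**Figure D3:**
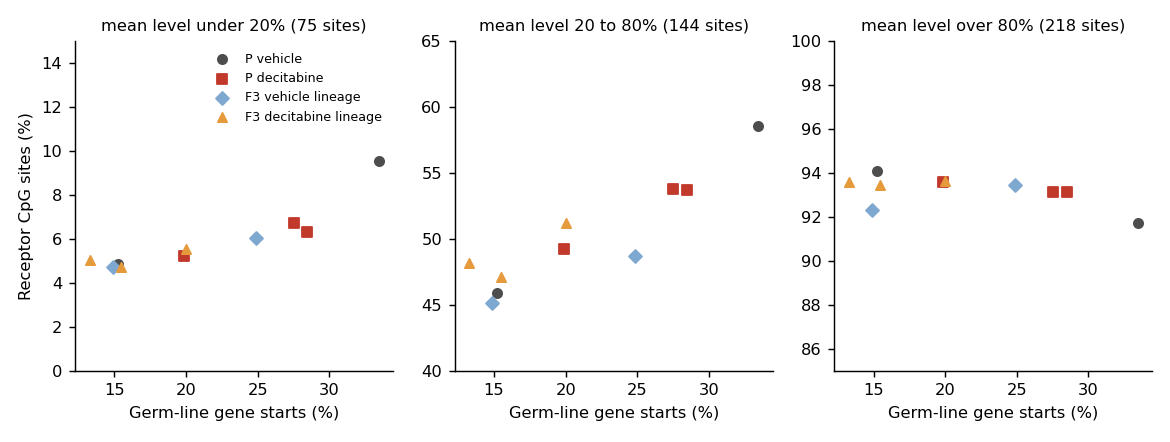
Mean level (%) of olfactory receptor CpG sites (vertical axes, each panel with its own range) against the mean level of 167 CpG sites at the starts of germ-line genes (horizontal axes), with 1 point per animal, for receptor sites with a mean level under 20%, of 20 to 80% and over 80%. Points rise together in the first and second panel (r 0.899 and 0.91) and lie flat or fall in the third (r -0.539).

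The P-generation comparison asked whether decitabine changed methylation directly in the spermatozoa of treated males. Over all olfactory receptor sites the groups overlapped. The mean was 64.8% ± 2.68 (SD, n = 2) in vehicle-control and 64.8% ± 0.864 (SD, n = 3) in decitabine treated animals. The means were 0.0118 percentage points apart (two-sided exact permutation test, p = 1). With 2 against 3 animals this exact permutation test cannot go below p = 0.1. The other covered autosomal sites had a difference of -0.324 percentage points (exact permutation p = 0.1). By part of the gene, intronic receptor sites were 69.6% and 72.1% in the vehicle-control animals and 73.3%, 75.4% and 73.2% in the decitabine treated animals. They did not overlap, with a difference of 3.14 percentage points (exact permutation p = 0.1). The flanks went the other way, also without overlap. The upstream flank had 78.1% and 81.1% against 77.7%, 73.9% and 74.1%, a difference of -4.39 (exact permutation p = 0.2). Of its 40 sites, 6 belonged to Olfr1033. The downstream flank had 76.4% and 77.7% against 76.1%, 73.9% and 73.3%, a difference of -2.65 (exact permutation p = 0.2). Coding exons (1.57) and other exons (-1.34) overlapped. In the F3-generation introns, coding exons and the upstream flank overlapped. There the downstream flank (1.68) and other exons (1.93) were higher in the decitabine lineage without overlap. No background share was computed by part.

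Of the 17 clusters, 3 had non-overlapping groups in the P-generation, 2 higher and 1 lower after decitabine. Of all genes with at least 10 covered sites, the groups were apart in 4.84% with higher and 16.1% with lower levels, and 3 of 17 is near the sum of these shares. The class I cluster of chromosome 7 had levels of 65.8% and 66.2% in vehicle-control and of 70.7%, 71.7% and 70.4% in decitabine treated animals, 4.94 percentage points higher (exact permutation p = 0.1). That p is the lowest this test can give with 2 against 3 animals, and it adds little to the lack of overlap itself. The chromosome 11 cluster from Olfr56 to Olfr1380 was also higher after decitabine, with 68.5% and 71.2% against 72.6%, 73.5% and 74.95%. Of its 15 sites, 12 belonged to Olfr56, whose difference was 6.445 percentage points. The chromosome 2 cluster from Olfr987 to Olfr1274-ps was lower, with 78.7% and 85.5% against 76.8%, 76.7% and 76.0%, a difference of -5.60 percentage points. Of its 30 sites, 9 belonged to Olfr1033, whose difference was -17.0 percentage points, so that this gene weighed heavily in the cluster mean. The other 14 clusters overlapped.

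In the test of single CpG sites, 10 olfactory receptor sites in 8 genes differed by at least 25 percentage points at q under 0.01, that is 2.29% of 437. Over all 904354 covered sites 0.67% were called. Among sites between 20 and 80% the shares were 6.25% (9 of 144) and 4.42%. Of the 10 sites, 5 were hypermethylated and 5 hypomethylated after decitabine, while the shares over all covered sites were 0.316% and 0.354%. This likelihood-ratio test on pooled reads has no term for the spread between animals, and no receptor site passed an F test with such a term. By limma 0 receptor sites and 0 of all sites passed at an adjusted p under 0.05. Of the receptor sites 46 (10.5%) had an unadjusted limma p under 0.05, against 6.06% of all sites. Groups did not overlap at 34 receptor sites with higher (7.78%, background 3.32%) and 39 with lower levels after decitabine (8.92%, background 5.08%). This background was not matched for level. Of all covered autosomal sites 66.2% had a mean level under 20%, against 17.2% of receptor sites.

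The largest group of hypomethylated sites was at the start of Olfr1033 on chromosome 2, where 3 called sites lay 39 and 36 bp before and 9 bp after the annotated start. The first had a level of 66% in C14 and 72.5% in C8, against 35.6% in D10, 48.5% in D11 and 31.3% in D13, from 16 to 50 reads. All 3 had the same read number as each other in every animal. They count as 3 of the 10 called sites, although they are not independent. Their pooled differences were -29.5, -28.3 and -29.5 percentage points (likelihood-ratio test, q = 0.003374, 0.005727 and 0.003374). The other 6 sites of Olfr1033 were lower as well, by -1.55 to -19.5 percentage points. Over its 9 sites the gene had 78.5% and 83.1% in vehicle-control and 66.5%, 62.8% and 62.0% in decitabine treated animals, a difference of -17.0.

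The largest increase was in the intron of Olfr1417 on chromosome 19. The called site had 35.7% in C14, 38.9% in C8, 90.5% in D10, 63.2% in D11 and 81.3% in D13, from 14 to 21 reads, a pooled difference of 41.1 percentage points (q = 0.005872). The other 2 sites of the gene were higher by 13.8 and 30.1 and were not called. Over its 3 sites Olfr1417 had 37.1% and 28.2% in vehicle-control and 59.05%, 59.2% and 75.8% in decitabine treated animals, and it had the largest SD over the 10 animals of all genes with at least 3 sites (14.3). In Olfr859 on chromosome 9, the called site had 18.1% and 5.00% in vehicle-control and 44.3%, 32.1% and 42.7% in decitabine treated animals, from 78 to 127 reads. Its pooled difference of 26.7 percentage points had the best depth of these sites (q = 2.317e-07), and the other 2 sites of the gene were higher by 5.27 and 23.7.

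The other hypermethylated sites stood in Olfr215, Olfr734 and Olfr18. The Olfr215 site on chromosome 6, in the coding exon, had 22.6% and 0% (0 of 15 reads in C8) in vehicle-control and 34.4%, 59.5% and 46.2% in decitabine treated animals (difference 32.2, q = 0.005591). The other 2 sites of Olfr215 went the opposite way, by -21.96 and -5.93. The Olfr734 site, in the coding exon on chromosome 14, had 13.95% and 35.3% against 58.8%, 73.3% and 36.0% (difference 34.1, q = 0.002874), so that C8 and D13 nearly met. The intronic Olfr18 site on chromosome 9 had 86.4% and 55.6% against 100%, 88.9% and 100% (difference 28.8, q = 0.0007058), and C8 alone was far from the rest.

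The other hypomethylated sites were in Olfr687 and Olfr1419. The site 174 bp upstream of the pseudogene Olfr687 on chromosome 7 had 65.5% and 86.4% against 60%, 51.6% and 36.0% (difference -27.9, q = 0.0016). The Olfr1419 site on chromosome 19 did not separate the groups, with 5.88% in C14, 85.2% in C8, 60.2% in D10, 3.23% in D11 and 17.8% in D13 (pooled difference -26.7, q = 4.552e-06). Without C8 its difference became 39.8 percentage points. The plot of the called sites shows the overlap at Olfr1419 and the separation at the other 9 sites of the P-generation.

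**Figure D4:**
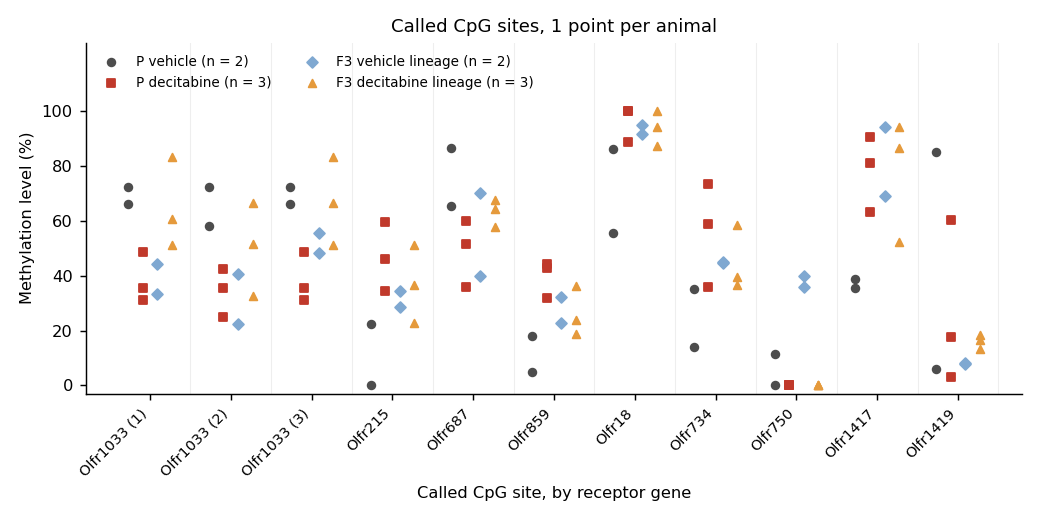
Methylation level (%) of the 11 called olfactory receptor CpG sites, named by gene, with 1 point per animal and colour and shape for the 4 groups; Olfr1033 has 3 sites. Olfr750 was called in the F3-generation, where both vehicle-lineage animals are at 40.0% and 36.0% and the decitabine-lineage animals at 0%, and the other sites in the P-generation.

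At the level of genes no olfactory receptor gene passed limma in the P-generation (0 of 128 at an adjusted p under 0.05; smallest adjusted p = 0.6546), and 10 had an unadjusted p under 0.05 (7.81%). Over all 27085 genes 0.0% passed and 6.62% had an unadjusted p under 0.05. The median log2 difference was 0.01 for receptor genes and -0.05 for all genes. Among the 54 genes with at least 3 sites, the groups did not overlap in 8 genes with higher (14.8%) and 5 with lower levels after decitabine (9.26%), against 5.41% and 14.8% of all genes with at least 3 sites. Over all 128 genes the groups did not overlap in 13 with higher and 11 with lower levels after decitabine, and the shares over all genes were 5.35% and 14.3%. Among genes with at least 3 sites, the largest positive differences without overlap beside Olfr1417 and Olfr859 were those of Olfr1307 (7.39 percentage points), Olfr762-ps1 (7.39), Olfr78 (7.01) and Olfr18 (6.69). Olfr78, a receptor that responds to short-chain fatty acids, had 93.4% in C14 and 82.0% in C8 against 95.2%, 94.4% and 94.5% over 6 sites, and without C8 its difference was 1.31. Beside Olfr1033, the negative ones were those of Olfr408-ps1 (-16.7), Olfr525 (-4.11), Olfr71 (-3.45) and Olfr1415 (-2.09). Without C14 a single gene, Olfr525 with 97.5% and 100% in vehicle-control against 95.2%, 93.2% and 95.6%, passed limma with an adjusted p of 0.04103, when 356 of all genes did. With 2 vehicle-control animals it did not pass.

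Single animals moved the count of called sites, at receptor sites and over all sites. Without C14, which leaves C8 as the only vehicle-control animal, 54 receptor sites (12.4%) and 39166 of all sites (4.33%) were called in the P-generation. Without D13 the counts were 5 (1.14%) and 7591 (0.839%). Without C8 there were 7 (1.6%), all of them hypermethylated, and 2475 of all sites (0.274%). Without D10 there were 14 (3.2%, against 0.778% of all sites) and without D11 10 (2.29%, against 0.601%).

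The F3-generation comparison asked whether a difference was present in untreated descendants. The mean level over all olfactory receptor sites was 62.7% ± 1.38 (SD, n = 2) in vehicle-lineage and 63.6% ± 0.819 (SD, n = 3) in decitabine-lineage animals. The means were 0.912 percentage points apart (two-sided exact permutation test, p = 0.5). All other covered autosomal sites differed by 0.206 percentage points (exact permutation p = 0.3). In 4 clusters the groups did not overlap, all higher in the decitabine lineage. Of all genes with at least 10 covered sites 12.5% were apart with higher and 5.93% with lower levels. The cluster on chromosome 9 from Olfr160 to Olfr986 had 74.5% and 72.2% against 82.4%, 75.9% and 75.2%, a difference of 4.48 percentage points. Of its 25 sites, 16 belonged to Olfr951, which had a difference of 5.89 percentage points with overlapping groups. The others were the clusters on chromosome 1 from Olfr1416 (3.18), on chromosome 9 from Olfr24 (2.58) and on chromosome 10 from Olfr9 (2.05). None of them was among the 3 that separated in the P-generation.

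A single olfactory receptor site was called in the F3-generation (0.229% of 437, background 0.216%), with a lower level in the decitabine lineage. Over all covered sites 0.069% were called lower and 0.147% higher, and among those between 20 and 80%, where no receptor site was called, 1.58%. The site lies in the downstream flank of Olfr750 on chromosome 14. F3C30 had 40.0% and F3C9 36.0%, which is 24 methylated of 65 reads, while F3D1, F3D31 and F3D7 had 0 methylated of 146 reads, which allows a share of up to 2.05%. The pooled difference was -36.9 percentage points (likelihood-ratio test, q = 4.911e-12), and without F3C30 12 receptor sites (2.75%, against 1.25% of all sites) and without F3D31 2 (0.458%, against 0.257%) were called. In the P-generation C14 had 11.4%, and C8, D10, D11 and D13 had 0%. The other 7 sites of the gene, the nearest 17 bp away, had F3 differences from -4.39 to 7.70, with 6 higher and 1 lower. By limma 0 receptor sites and 0 of all sites passed (25 receptor sites with an unadjusted p under 0.05, 5.72%, against 4.08% of all sites). The F test called no receptor site. The groups did not overlap at 44 receptor sites with higher (10.1%, background 5.25%) and 24 with lower levels in the decitabine lineage (5.49%, background 4.48%). As in the P-generation, this background was not matched for level.

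No receptor gene passed limma in the F3-generation (smallest adjusted p = 0.9999; 4 at an unadjusted p under 0.05, 3.12%), as for all genes (0.0%, and 2.54% at an unadjusted p under 0.05). Among genes with at least 3 sites, the groups did not overlap in 8 genes with higher levels (14.8%, background 12.1%) and 3 with lower levels in the decitabine lineage (5.56%, background 6.55%). Over all 128 genes there were 15 with higher and 8 with lower levels, against 11.7% and 6.8% of all genes. Among genes with at least 3 sites, the largest positive differences without overlap were those of Olfr1417 (11.9 percentage points), Olfr1362 (8.99), Olfr859 (7.81), Olfr225 (6.48), Olfr783-ps1 (5.68) and Olfr1414 (4.38). The negative ones were those of Olfr1117-ps1 (-7.30), Olfr750 (-3.37) and Olfr1342 (-2.14). Olfr1117-ps1 had 99.46% and 98.8% in the vehicle lineage against 93.1%, 87.8% and 94.6% in the decitabine lineage over 4 sites, with the smallest unadjusted p of the receptor genes (0.0006425).

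**Figure D5:**
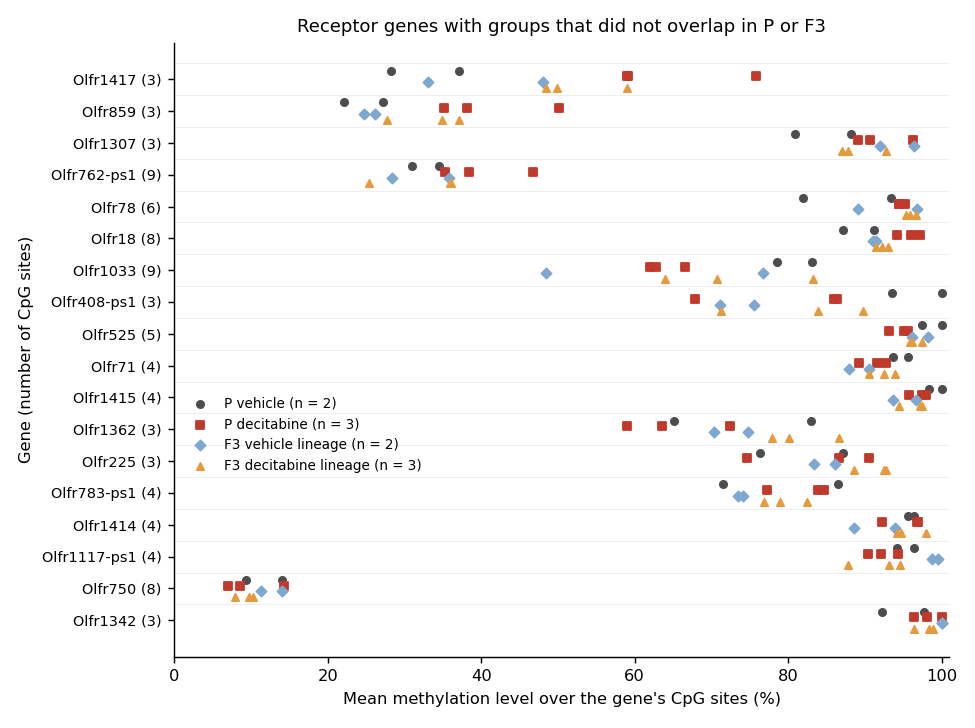
Mean methylation level (%, horizontal axis) of the 18 olfactory receptor genes with at least 3 CpG sites (number in brackets) that had the largest non-overlapping group differences in the P- or the F3-generation, with 1 point per animal. Olfr1417 shows the widest separation in the P-generation (28.2% and 37.1% against 59.05% to 75.8%). The other non-overlapping differences of that generation ran from -17.0 (Olfr1033) to 16.5 percentage points (Olfr859).

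Each generation's differences were then set beside those of the other. Of the 10 sites called in the P-generation none was called in the F3-generation, where their differences ranged from -8.79 to 24.3 percentage points. Of the 5 sites hypermethylated in the P-generation, 3 were higher and 2 lower in the decitabine lineage, and the 5 hypomethylated ones were higher, 3 of them the Olfr1033 sites with shared read numbers. The first Olfr1033 site had 44.4% and 33.3% in the vehicle lineage and 51.2%, 60.6% and 83.3% in the decitabine lineage. Over its 9 sites Olfr1033 overlapped in the F3-generation, with 76.7% and 48.5% against 64.0%, 70.8% and 83.2%. Among the genes with at least 3 sites, 3 had non-overlapping groups in the same direction in both generations, namely Olfr1417, Olfr859 and Olfr18, all higher. Over all genes with at least 3 sites this share was 1.48%. Olfr1417 had 33.1% and 48.0% in the vehicle lineage against 49.9%, 48.5% and 59.03%, Olfr859 24.7% and 26.2% against 34.9%, 27.7% and 37.2%, and Olfr18 91.07% and 91.46% against 91.47%, 93.05% and 92.26%. In Olfr18 the F3 groups were thus barely apart, with a difference of 0.992 percentage points. None of these genes had non-overlapping groups in opposite directions. Over all 128 genes there were 2, Olfr704 and Olfr735 with 2 and 1 sites, against 2.31% of all genes, and among the 10 called sites 1, the first Olfr1033 site, against 7.86% of all autosomal sites called in the P-generation. The interaction of group and generation passed for no receptor gene by limma (smallest adjusted p = 0.9938; 8 at an unadjusted p under 0.05, 6.25%, against 4.7% of all genes, of which 0.0% passed).

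No gene that acts with the receptors was called. Of 32 listed genes of olfactory signal transduction, receptor transport and receptor choice, 31 held covered sites. By limma none passed in the P-generation (1 at an unadjusted p under 0.05, 3.23%) or in the F3-generation (0). Over all genes 0.0% passed, and 6.62% and 2.54% had an unadjusted p under 0.05. The levels of the listed genes were set by gene. Lhx2 and Emx2, transcription factors needed for receptor expression, had levels of 4.62% and 5.14%, and the G protein subunit gene Gnal, which couples receptors to adenylyl cyclase, and Adcy3, that cyclase, had 13.8% and 14.1%. The channel genes Cngb1 and Ano2, which carry the receptor current, had 79.9% and 82.99%, and Omp, the olfactory marker protein gene, 87.5% over 4 sites. Of 92 genes of the other chemosensory receptor families none passed limma, as for all genes. At an unadjusted p under 0.05 there were 8 in the P-generation (8.7%, against 6.62% of all genes) and 5 in the F3-generation (5.43%, against 2.54%).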

How the data were processed

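The authors digested DNA with MspI, sequenced bisulfite converted fragments, trimmed reads with Trim Galore (0.3.3) and cutadapt (1.1) and mapped them with Bismark (0.10.1) to mm10, per the labels' processing notes and the study's methods. The deposited files list, for each cytosine of a CpG on either strand, 2 read counts joined by a slash. They were read as methylated and unmethylated, an order not labelled in the files and taken from the values, since CpG-dense sites, which are mostly unmethylated, then had a mean level of 5.08%. Here the strands were summed, and sites with at least 10 reads in all 10 animals were kept. The gene annotation was GENCODE vM21 and the sequence GRCm38.p6.

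Single sites were tested in each generation by a likelihood-ratio test of a logistic model on reads pooled by group, with Benjamini-Hochberg adjustment over 904354 sites (q under 0.01 and a difference of at least 25 percentage points). It compares these reads and has no term for animals. For genes, log2((methylated + 1)/(unmethylated + 1)) of the reads summed within 1 kb of each gene was fitted in limma (3.58.1; R 4.3.3) with the 4 groups and a trend on coverage, with adjustment over 27085 genes. On simulated data for the P-generation (27085 genes, 100 shifted by each size), 35 genes shifted by 1.5 and 72 shifted by 3 log2 units were recovered, with 5 false calls. The shifted genes were drawn only from genes with a mean of at least 100 reads and a mean log2 ratio under 3 in size. Recovery was not measured for genes with fewer reads or more extreme levels, such as many receptor genes with 1 or 2 sites. Single means were compared by exact permutation of animals. No separate cultures or litters are labelled, so the p-values of limma and of the permutation tests rest on the spread between these animals. The q-values of single sites rest on pooled reads and do not measure that spread. Named genes and sites were the called sites, the 6 largest non-overlapping differences per direction and generation among genes with at least 3 sites, the 5 genes with most sites, the lowest levels or the largest SD, and listed well-studied receptors. The members, lists and tests were chosen with earlier results of these data known. Python (3.11.15), numpy (2.4.6), scipy (1.17.1) and pandas (2.3.3) were used.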

Additional observations from a re-analysis of the deposited data

Results flagged for a closer look

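No group had the 4 animals needed to look for a single outlying animal. In 2 genes and at 1 called site the groups did not overlap and moved in opposite directions in the 2 generations. The 2 genes are among 128, and over all genes this share was 2.31%. Of all autosomal sites called in the P-generation it was 7.86%. The first was Olfr704, with 2 sites, which was lower in decitabine treated animals of the P-generation (96.3% against 83.2%) and higher in the decitabine lineage of the F3-generation (88.3% against 95.7%), so that the differences were 20.4 percentage points apart (limma interaction, adjusted p = 0.9938). Olfr735, with 1 site, went from 98% against 87.0% to 90.5% against 94.9%, 15.5 percentage points apart (limma interaction adjusted p = 0.9938). The site 39 bp before Olfr1033 went from 69.3% against 38.4% to 38.9% against 65.03%, 57.0 percentage points apart (limma interaction, adjusted p = 0.8431). None of these interactions passed after adjustment.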

How the results depend on the processing

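No paired analysis was possible within a generation because the groups are different animals and the labels match none of them to each other. With the P-generation ancestor as a block, an alternative chosen after seeing the data, the interaction still passed for 0 receptor genes and 0 of all genes by limma (3 residual degrees of freedom). At an unadjusted p under 0.05 there were 11 receptor genes (8.59%), against 5.78% of all genes. Of the summary results recomputed under other settings, 118 values kept their direction and call or their size, 21 moved and 1 lost its call, and of those for single named genes and sites 179 stayed, 39 lost their call and 1 reversed. With all reads pooled, the mean level difference was 2.24 percentage points in the P- and -0.347 in the F3-generation. The P-generation count of 10 called sites became 4 with at least 20 reads, 17 with a difference of at least 10 and 1 with at least 40 percentage points, 19 within 5 kb, and 0 by the F test and 0 by limma. It ranged from 5 (without D13) to 54 (without C14) when 1 animal was left out. The F3-generation count of 1 became 0 with at least 20 reads, at a difference of 40, inside gene bodies, by the F test and by limma, 3 at q under 0.05, 4 at a difference of 10 and 7 within 5 kb, and ranged from 1 to 12 (without F3C30) when 1 animal was left out; without F3D31 it was 2. With reads thinned to the shallowest animal it was 1 as well, but a site with a higher level was called, while the Olfr750 site had under 10 reads in an animal and was not tested. The count of 0 receptor genes ranged from 0 to 1 in the P-generation (without C14) and stayed 0 in the F3-generation and for the interaction. The difference to other sites lost its call among sites with at most 4 CpG dinucleotides in 200 bp (0.144, exact permutation p = 0.8066), and ranged from 35.9 to 36.4 without 1 animal. The mean level difference ranged from -1.88 to 1.91 in the P- and from -0.0648 to 1.89 in the F3-generation without 1 animal. The difference of the Olfr1419 site ranged from -60.5 (without D10) to 39.8 (without C8), where it reversed. The causes were not tested. With 2 or 3 animals a group, no exact test of 1 value can reach 0.05, and 9.15% of the genes were measured.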
